A study of Mus musculus with 13 samples.

Results

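Ly6e, Cd83 and Pim1 are 3 genes known as off-targets of AID, and they were described here through the DNA junctions that joined them to a fixed chromosome break. A junction belonged to them when its deposited gene label held 1 of the 3 names. This gave 13 of the 16455 junctions in the 13 libraries, with 6 at Ly6e, 4 at Cd83 and 3 at Pim1. The genes were chosen by their junction counts in the c-myc B-cell libraries, so these counts are a description and were not tested. Junctions without these labels in windows of 100 kb around each gene are given apart.

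The study used high-throughput genome-wide translocation sequencing (HTGTS), in which a fixed break made by the nuclease I-SceI, the bait, is amplified together with the sequence it joined, the prey. Mouse cells carried I-SceI cassettes at c-myc on chromosome 15 or at IgH, the heavy chain locus of chromosome 12. The c-myc B cells (3 libraries, genotype c-myc25-2xI) and IgH B cells (3 libraries, genotype IgH2-28xI) were splenic B cells activated with anti-CD40 and IL-4. The IgH T cells (3 libraries, genotype IgH2-28xI) were splenic T cells activated with ConcanavalinA and IL-2. The c-myc fibroblasts (4 libraries, genotype c-myc25xI;RosaI-SceI-GR) were tail cells transformed with SV40 and not activated. The labels do not say whether replicates came from separate animals or cultures, so the spread between libraries may be technical.

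AID is the cytosine deaminase that B cells use for class switching and somatic hypermutation of their immunoglobulin genes. It acts on transcribed DNA, and besides the switch regions it also attacks a set of other genes active in B cells. Such genes then become partners of other breaks in translocations. Ly6e encodes a small membrane-anchored protein of the Ly6 family, Cd83 a surface protein of activated B cells and dendritic cells, and Pim1 a serine/threonine kinase and proto-oncogene that is a known target of aberrant hypermutation in lymphoma. AID was not measured or removed in these libraries.

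The libraries held 387 to 2918 junctions each. Joins within 10 kb of the bait break, or of the other junction peak of the cassette chromosome, were set aside. This left 1850 junctions in c-myc B cells, 849 in c-myc fibroblasts, 474 in IgH B cells and 266 in IgH T cells, and these are the denominators of the shares below. Labels of immunoglobulin switch regions, which AID breaks in B cells, marked 242 of them in c-myc B cells, 116 in IgH B cells, 6 in IgH T cells and 0 in fibroblasts. Of the 242, 103 were labelled S mu and 106 S gamma 1. In IgH libraries the break windows, around 114577038 and 114664493 of chromosome 12, covered both of these regions. Switch counts and denominators under the c-myc and IgH baits therefore do not cover the same regions. The 3 c-myc B-cell libraries came from 3 flow cells, per the read names, and 0 of the other 10 libraries shared a flow cell with them. Flow cell, genotype and cell type therefore cannot be told apart between c-myc B cells and fibroblasts.

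The prey sequences show 13 different joins, with no start in common. Each line gives the first 30 reference bases of the prey on mm9, read away from the junction and shown because the places and letters at which the genes were joined are the finding. Capitals would mark AGCT, a core of the hotspots that AID prefers, and none of these 13 stretches of 30 bases held it.
Ly6e, replicate 36, chr15:74786522-74786551, − strand: ctctccagaaacgtgcaggaaggactgggg
Ly6e, replicate 37, chr15:74786886-74786915, − strand: ggcagggccctggggacctgaggaacacct
Ly6e, replicate 36, chr15:74787429-74787458, + strand: tggtcctctcctctaccctatgccaaagac
Ly6e, replicate 14, chr15:74788247-74788276, + strand: catctacaaaggggacataaggcatattgg
Ly6e, replicate 36, chr15:74788456-74788485, + strand: cagcccttctgggcatggagcaaggtatgg
Ly6e, replicate 36, chr15:74789105-74789134, + strand: ccttggctacaccctgaacaagggctgctc
Cd83, replicate 14, chr13:43880996-43881025, − strand: cgcttttgatcatgatctgtatcctaacat
Cd83, replicate 14, chr13:43881983-43882012, + strand: tctgcccagcgcccagggtccaccctgtta
Cd83, replicate 36, chr13:43883791-43883820, + strand: aactccaacagttggagttcagttagtgtc
Cd83, replicate 36, chr13:43897198-43897227, + strand: actccctgacacagggtcttgagcaccatc
Pim1, replicate 14, chr17:29628129-29628158, − strand: tggtggcgtgcaggtcgttgcagggcgcgg
Pim1, replicate 37, chr17:29630403-29630432, + strand: aaacccgagccaggcagtgtctttattaaa
Pim1, replicate 14, chr17:29631334-29631363, − strand: tttcagttaaaaaagtgcctcccctcttaa

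All 13 junctions came from c-myc B cells, where every library held some, and the other 10 libraries held 0. Replicate 14 held 5 of 675 junctions, replicate 36 held 6 of 909 and replicate 37 held 2 of 266. As shares these were 0.741% (95% Wilson interval 0.317 to 1.72), 0.660% (0.303 to 1.43) and 0.752% (0.206 to 2.70). The mean was 0.718% ± 0.0501 (SD, n = 3), and the intervals, which cover counting error only, overlapped widely. With 0 to 4 junctions of each gene in a library, no difference between libraries was detectable for any of the genes.

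**Figure D1:**
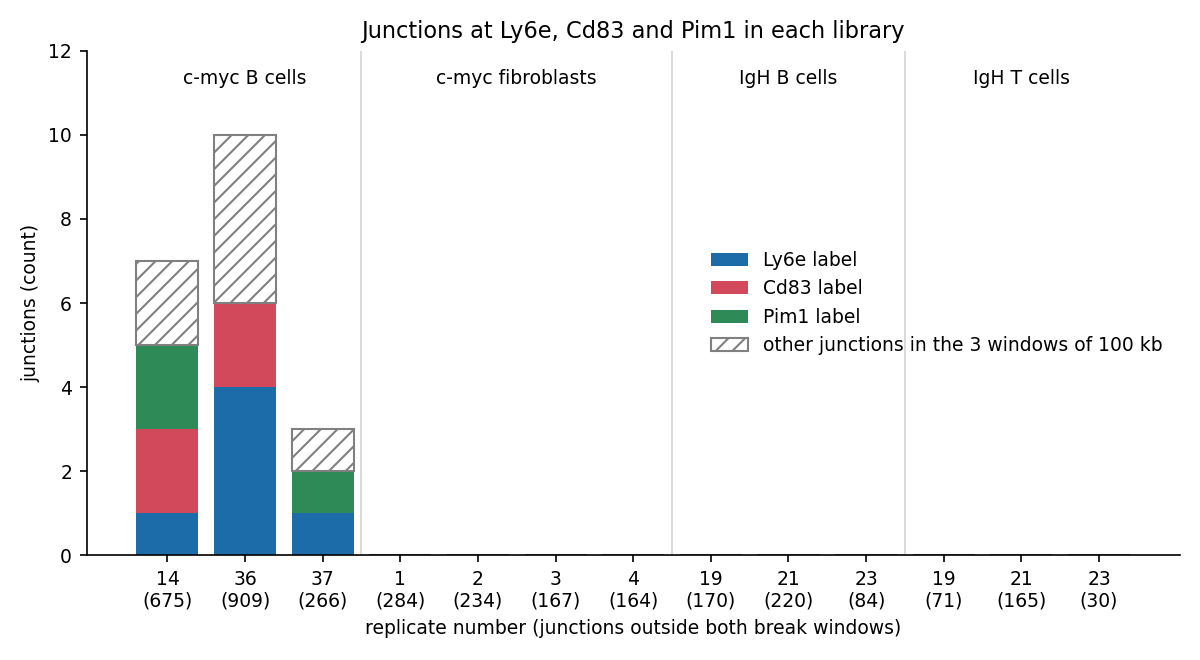
Junction counts on the vertical axis for each of the 13 libraries, coloured by gene label, with hatched bars for the other junctions in the 3 windows of 100 kb. The c-myc B-cell libraries reach 7, 10 and 3 junctions with both kinds together, and the bars of the other 10 libraries are at 0.

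Ly6e, on the same chromosome as the c-myc cassette, was the gene of the 3 found in all c-myc B-cell libraries. Replicates 14, 36 and 37 held 1, 4 and 1 of its junctions, or 0.148%, 0.440% and 0.376% of junctions outside the break windows. The mean was 0.321% ± 0.153 (SD, n = 3). Replicate 36 held most of the junctions but its share lay close to that of replicate 37.

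Cd83 was joined in replicates 14 and 36 with 2 junctions each, and replicate 37 held 0 of 266, which allows a share of up to 1.13%. The shares were 0.296%, 0.220% and 0%, with a mean of 0.172% ± 0.154 (SD, n = 3). Pim1 was joined in replicates 14 and 37 with 2 and 1 junctions, and replicate 36 held 0 of 909, which allows up to 0.330%. Its shares were 0.296%, 0% and 0.376%, with a mean of 0.224% ± 0.198 (SD, n = 3). By mean share the order was Ly6e, Pim1 and Cd83, while by number of junctions Cd83 came before Pim1. No neighbours in either order differed beyond the spread between libraries.

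Depth limits what the zeros of the other groups show. Over all libraries of a group, the 3 genes held 0.703% in c-myc B cells, the share they were chosen for. The 0 of 849 junctions in fibroblasts allow up to 0.353%, the 0 of 474 in IgH B cells up to 0.633% and the 0 of 266 in IgH T cells up to 1.13%. Nothing is read from setting these limits beside c-myc B cells, since the choice of genes used that share. Between IgH B and IgH T cells the difference in share was 0 points with every library at 0, and no test could be made.

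The limits are wider on the chromosomes of the single genes. Off chromosomes 12 and 15, where neither cassette lies, Cd83 and Pim1 together held 7 of 778 junctions of c-myc B cells, or 0.900%. There the fibroblasts held 0 of 635, which allows up to 0.472%. IgH B cells held 0 of 179 and IgH T cells 0 of 93, which allow up to 1.68% and 3.23%. On chromosome 15 outside the break windows, Ly6e held 6 of 783 junctions of c-myc B cells, or 0.766%, while fibroblasts held 0 of 187 there, a limit of 1.60%. IgH B cells had 8 junctions on all of chromosome 15 and IgH T cells 3, too few to detect joins to Ly6e at such a rate. Here too nothing is read from setting the limits beside the shares of c-myc B cells, by which the genes were chosen.

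The junctions of Ly6e and Pim1 lay within a few kb at each gene, while those of Cd83 spread further. Only junctions with the gene label were counted, so each span is bounded by the stretch that carries that label. Gene lengths were not at hand, so the spans are a description and are not read as close or wide grouping. The 6 Ly6e junctions lay within 2554 bp, from 74786551 to 74789105 of chromosome 15, and 12.97 Mb from the c-myc bait peak. Neighbouring junctions there were 209 to 818 bp apart. Replicates 14 and 37 each placed 1 junction between those of replicate 36.

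The 3 Pim1 junctions lay within 3205 bp, at 29628158, 29630403 and 29631363 of chromosome 17, with gaps of 960 bp or more. The single junction of replicate 37 fell between both junctions of replicate 14. The Cd83 junctions spread over 16173 bp, from 43881025 to 43897198 of chromosome 13. The first 3 of them were close together, and the fourth, from replicate 36, stood 13407 bp apart from the next.

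Preys joined in both orientations were found at each gene. A + strand junction is one whose prey is read towards higher coordinates. Ly6e had 4 on the + strand and 2 on the − strand, Cd83 3 and 1, and Pim1 1 and 2. Together 8 of 13 were on the + strand, or 61.5% (95% exact Clopper-Pearson interval 31.6 to 86.1). Of the 1830 other junctions of these libraries outside the break windows, 56.6% were on the + strand. This share was 65.3% on chromosome 15, where Ly6e lies, and 50.1% off it, where Cd83 and Pim1 lie. The interval treats the junctions as independent, although those of 1 library are not replicates, and no difference was tested. By library the + strand held 2 of 5 in replicate 14, 5 of 6 in replicate 36 and 1 of 2 in replicate 37. At Ly6e both − strand junctions lay below all 4 + strand junctions, while at Pim1 the + strand junction lay between those on the − strand.

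**Figure D2:**
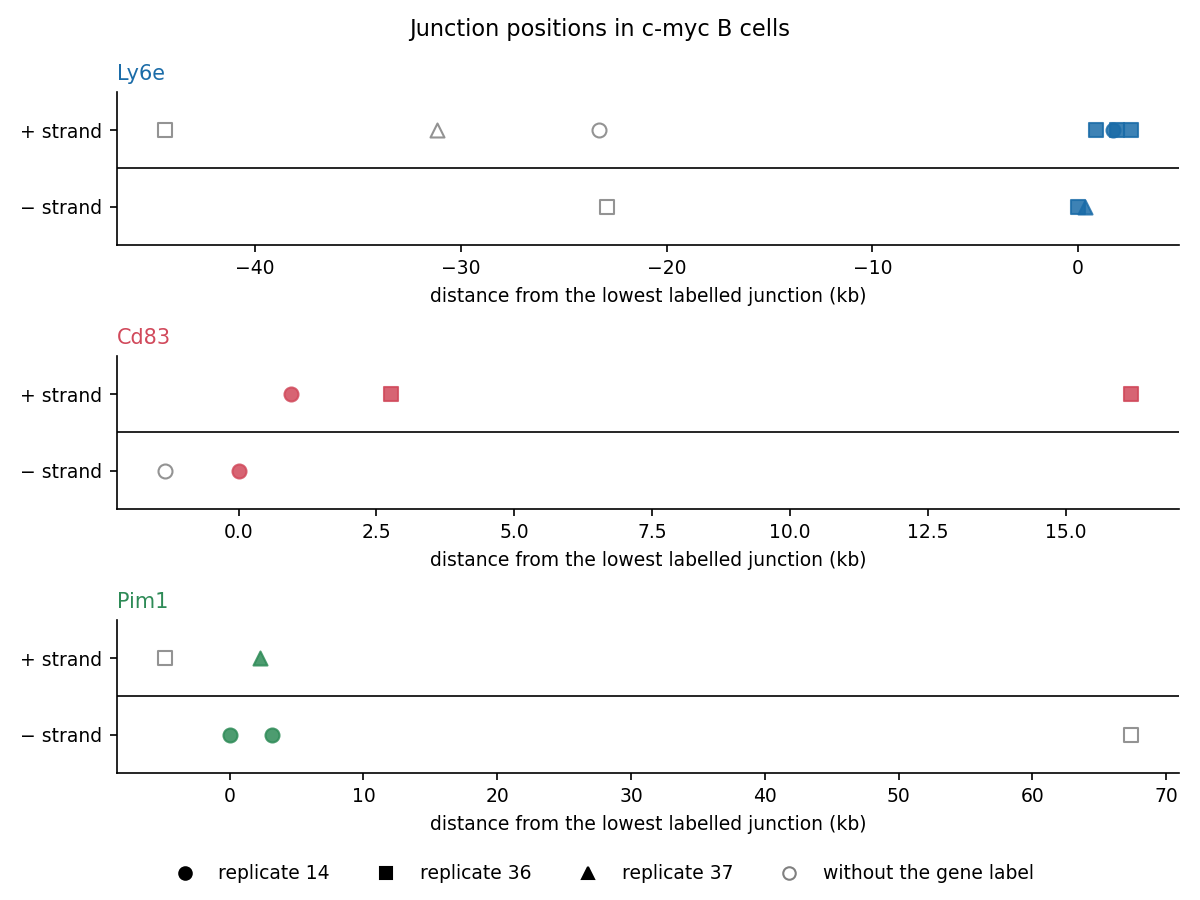
Positions of the junctions in c-myc B cells as distance in kb from the lowest labelled junction of each gene (horizontal axis), by strand (vertical axis) and replicate (marker shape). Filled markers carry the gene label and open markers do not. The Ly6e markers span 2554 bp, and the 4 open markers in its window all lie at least 22898 bp below them.

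The 3 windows of 100 kb held 7 more junctions, again all from c-myc B cells. In the Ly6e window, 4 without a gene label lay at 74742180, 74755377, 74763287 and 74763653, at 22898 to 44371 bp from the nearest Ly6e junction. They came from all 3 libraries, with 2 from replicate 36. In the Cd83 window 1 junction of replicate 14, at 43879696 and without a label, lay 1329 bp from a Cd83 junction. In the Pim1 window 1 without a label lay at 29623346, 4812 bp from a Pim1 junction, and 1 at 29695493 carried the label Tbc1d22b, 64130 bp away, both from replicate 36. The Pim1 window thus held 2, 2 and 1 junctions in replicates 14, 36 and 37, of which those in replicate 36 did not carry the Pim1 label. The Cd83 window held 0 in replicate 37.

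The surroundings held few junctions. The windows lie at genes chosen by their c-myc B-cell junctions. Nothing is therefore read from setting windows beside flanks, or beside the windows of fibroblasts. Within 1 Mb on either side of its window Ly6e had 8 junctions in c-myc B cells, or 0.4 per 100 kb, against 10 in the window itself. Cd83 had 1 and Pim1 1 in the same flanks, against 5 in each window. In fibroblasts the flanks of Ly6e, Cd83 and Pim1 held 2, 0 and 4 junctions and the windows 0. Chromosome 13, with Cd83, had 39 junctions in fibroblasts and 38 in c-myc B cells, and chromosome 17, with Pim1, had 27 and 33. IgH B cells had 0 and 11 on these chromosomes and IgH T cells 1 and 3.

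Among all labels of c-myc B cells the 3 genes were in the upper part by number, which is how they were chosen. Outside the break windows 478 gene labels were found, and 427 of them had 1 junction. In at least 2 libraries 30 labels were found, or 6.28%, and Cd83 and Pim1 were among them. In all 3 libraries 9 labels were found, or 1.88%, Ly6e among them. The genes were chosen on these counts, so nothing is read from their place in them. In fibroblasts 4.93% of 345 labels were found in at least 2 libraries and 0.87% in at least 3. In IgH B cells these were 6.72% and 2.52% of 119 labels, and in IgH T cells 4.29% of 70 labels were found in at least 2 libraries, with none of the 3 genes in any. Only 5 labels had more junctions than Ly6e, namely Pvt1 beside the break, the switch regions S gamma 1, S mu and S epsilon, and D030024E09Rik. Mmp24 had 6 as well, with the same 1, 4 and 1 by library as Ly6e.

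**Figure D3:**
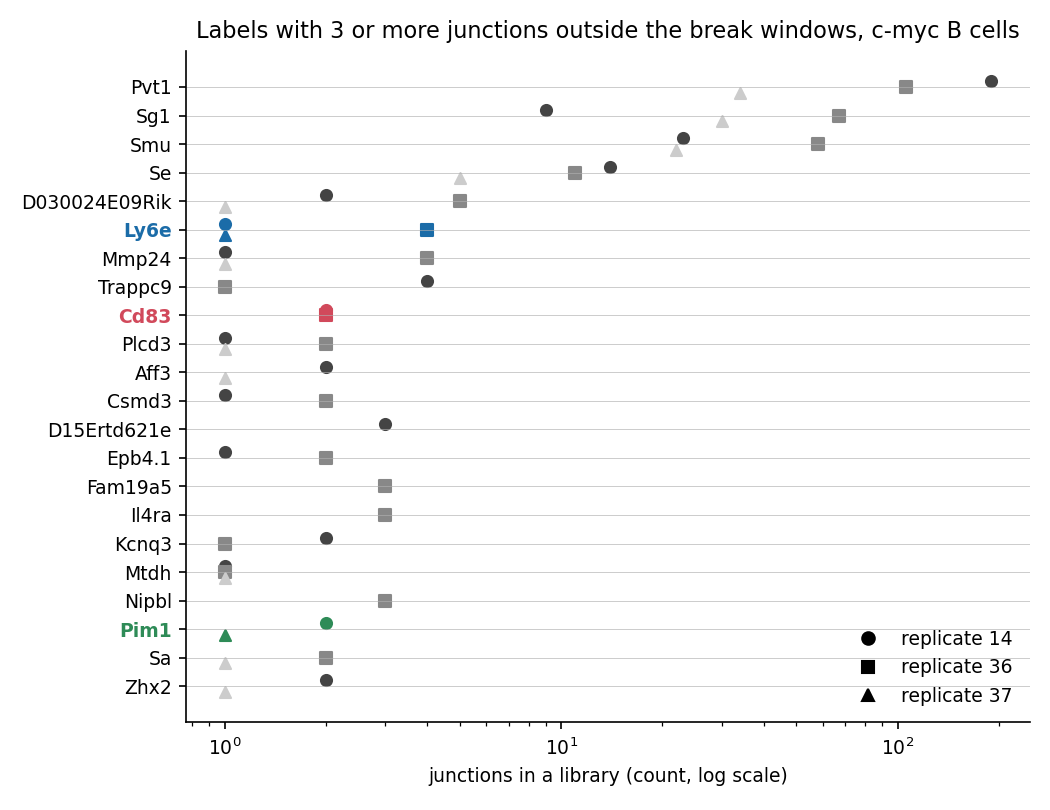
Junctions per library (horizontal axis, log scale) for each label with 3 or more junctions outside the break windows in c-myc B cells, with marker shape giving the replicate and colour the 3 genes. Libraries at 0 are not drawn. The switch regions (Sg1, Smu, Se) and Pvt1 stand to the right, and Ly6e, Cd83 and Pim1 lie among labels with 1 to 4 junctions per library.

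By spacing, the 3 genes lay among a short list of places. They were chosen by their junction counts in these libraries, so nothing is read from their place in this list. When junctions at most 5 kb apart were joined, with 1 Mb around the breaks left out, c-myc B cells had 957 groups, and 18 of them (1.88%) held 3 or more junctions. Of these, 4 were confined to 50 bp or less, all in single libraries. The Ly6e group held 6 junctions from 3 libraries, the Cd83 group 4 from 2 libraries and the Pim1 group 4 from 3 libraries, the Cd83 and Pim1 groups each with 1 unlabelled junction. The Cd83 junction at 43897198 stood outside its group. Larger groups lay only at S mu, S gamma 1 and S epsilon. Groups of like size were those of Mmp24 with 5 junctions, of Plcd3 and Acbd4 with 5, of A1bg with 5, of Trappc9 with 4 in a single library, of Il4ra with 4 and of the kappa light chain joining segments with 4. In fibroblasts 2 of 742 groups (0.27%) held 3 or more, at Eefsec and Lzic, and both were within 50 bp. IgH B cells had 2 of 216 (0.926%) and IgH T cells 1 of 111 (0.901%), all without a gene label and within 50 bp.

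By which libraries held a junction and which did not, the label most like Ly6e was Plcd3, a phospholipase gene, which matched it in 13 of 13 libraries with 4 junctions. Next came 17 labels that matched in 12, Cd83 and Mtdh first among them. For Cd83 the first were Csmd3, Epb4.1 and Kcnq3 with 3 junctions each, and 7 of 129 candidate labels matched it in all 13 libraries. For Pim1 4 labels matched in all 13, with Kirrel3 and Pik3cd among them at 2 junctions each. With so few junctions such matches are common and are given as a description only.

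Other genes known as AID off-targets were joined in the same libraries. Of a list of 75 such genes without Ly6e, Cd83, Pim1, Myc and Pvt1, 10 held 15 junctions in c-myc B cells, or 0.811% of junctions outside the break windows. Among the 70 genes of the list that matched a protein-coding RefSeq gene (GRCm38.p6) by name, 9 had a junction (12.9%), beside 440 of all 21900 protein-coding genes (2.01%). Gene length was not matched, the list was chosen with earlier results of these data known, and the difference was not tested. Il4ra, the receptor of the IL-4 used for activation, had 3, all in replicate 36. Aff3 had 3, with 2 in replicate 14 and 1 in replicate 37, and Irf4, a transcription factor of activated B cells, had 2 in replicate 14. Bcl2, Ccnd3, Clec16a, Gas5, Gpr183, Grap and Il4i1 had 1 each. Most genes of this list thus had no junction, and none of them reached the count of Ly6e.

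The same list held 1 junction in fibroblasts, at Ikzf1, 2 in IgH B cells, at Aff3 and Batf, and 1 in IgH T cells, at Foxo1. As shares these were 0.118%, 0.422% and 0.376% of junctions. Of the 70 matched genes 1.43%, 2.86% and 1.43% had a junction, beside 1.5%, 0.511% and 0.288% of all protein-coding genes. A list of further genes of activated B cells held 0 junctions in c-myc B cells. Lists of 14 T-cell genes and 12 fibroblast genes held 0 in every group.

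Inserted bases between bait and prey were found in 9 of the 13 junctions, or 69.2% (95% exact Clopper-Pearson interval 38.6 to 90.9). Of the 1830 other junctions of these libraries 35.0% had them. Inserted bases are those between the aligned ends of bait and prey, so bait sequence missed by the alignment would count among them. By library these were 4 of 5, 3 of 6 and 2 of 2 at the 3 genes, beside 34.3%, 34.1% and 39.5% elsewhere. In 3 of the 9 the insertion was a single base, and with 2 or more bases the shares were 46.2% and 30.6%. The difference was not tested, since junctions of 1 library are not replicates. The inserted lengths were 3, 150, 24, 1, 0 and 26 bases at Ly6e in order of position, 33, 1, 0 and 0 at Cd83, and 0, 17 and 1 at Pim1.

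**Figure D4:**
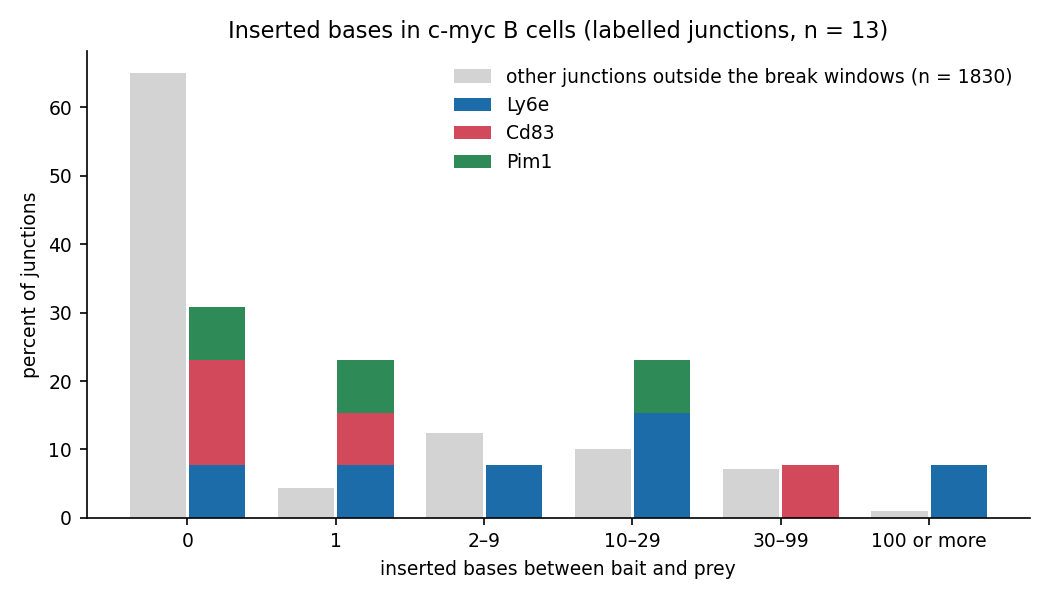
Percent of junctions (vertical axis) by number of inserted bases (horizontal axis) in c-myc B cells, for the 1830 other junctions outside the break windows in grey and the 13 labelled junctions coloured by gene. No insertion was found in 65.0% of the grey and 30.8% of the coloured junctions, and the single Ly6e junction at the right holds 150 bases.

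The longest insertion, between the c-myc break and Ly6e, matched a switch region in sequence. In replicate 37, at 74786915, 150 bases stood between bait and prey. Of these, 144 bases (96%) were covered by words of 20 bases that also occur in preys labelled S gamma 1, a switch region to which IL-4 directs B cells. They shared such a word with 74 of the 316 junctions labelled S gamma 1 and with 0 of those labelled S mu or S epsilon. How these bases came to stand in this single read was not tested. The capitals mark the covered bases, shown because the read holds the c-myc bait, bases matching a switch region and Ly6e in a row.
Inserted bases, Ly6e, replicate 37: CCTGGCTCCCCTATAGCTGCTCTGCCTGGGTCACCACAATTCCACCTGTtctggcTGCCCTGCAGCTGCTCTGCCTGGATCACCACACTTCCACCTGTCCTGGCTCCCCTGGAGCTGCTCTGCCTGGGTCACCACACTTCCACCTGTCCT

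Such insertions were rare. Among the 182 junctions of c-myc B cells outside the break windows with 20 or more inserted bases and no switch label, 2 held a word of S gamma 1, this one and 1 in replicate 14. More than 100 inserted bases were found in 18 of the 1830 other junctions.

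A second Ly6e junction, in replicate 36 at 74789105, carried inserted bases that resemble its own prey. Of its 26 inserted bases, a stretch of 17 matched prey bases 7 to 23 at 16 positions. Both are shown with the stretch in capitals. In the other 3 labelled junctions with 10 to 100 inserted bases the longest such match was 6 bases. Matches at junctions outside the windows of the 3 genes are not given here, so how common they are was not tested.
Inserted bases, Ly6e, replicate 36: CTACACCTTGAACAAGGtgtatggat
Prey, Ly6e, replicate 36: ccttggCTACACCCTGAACAAGGgctgctc

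Other insertions shared words with the cassette sequence of the bait. How often this occurs among the other junctions is not given here. Whether such bases were inserted or are bait sequence missed by the alignment was not tested. At Cd83 in replicate 14 28 of 33 inserted bases, at Ly6e in replicate 36 22 of 24 and at Pim1 in replicate 37 14 of 17 lay in words of 10 bases that also occur in the bait, on either strand. The bait end of the 13 junctions ranged from 26 bases before to 74 bases beyond the most frequent bait end of the other junctions. At Ly6e 4 of 6 reads ran beyond it, at Cd83 2 of 4 and at Pim1 1 of 3, beside 44.5% of the other junctions.

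Within the first 40 prey bases, AGCT, which reads the same on both strands, was present at 1 of 13 junctions, that of Ly6e at 74788456, or 7.69% (95% exact Clopper-Pearson interval 0.195 to 36). It was present at 26.0% of the other 1830 junctions and at 19.1% of those without a switch label. The interval treats the junctions as independent, although those of 1 library are not replicates, and the difference was not tested. The share of G and C in these 40 bases ran from 35% to 75%, with a median of 52.5% at the 3 genes and 47.5% elsewhere. Ly6e lay between 47.5% and 65%, Cd83 between 42.5% and 57.5%, and Pim1 had 75%, 35% and 40%. RefSeq promoter sequences (GRCm38.p6) were at hand for Pim1, and 0 of its 3 junctions shared a word of 20 bases with them. How far these sequences reach is not given here, so nothing is read from this about distance from the start of the gene.

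The reads aligned over 42 to 211 bases. Cd83 and Pim1 reads matched the reference at every aligned base, while 4 of 6 Ly6e reads had 1 to 8 mismatching bases, all in replicates 36 and 37. Of the other junctions on chromosome 15 in c-myc B cells 16.2% had a mismatch and of those off it 37%. These shares differed by library. In replicates 14, 36 and 37 they were 7.67%, 24.7% and 18.3% on chromosome 15, and 18.4%, 45.2% and 44.1% off it. In replicate 14 all 5 labelled fragments ended in GG, as did 79.2% of its other fragments, against 12.3% and 14.4% in replicates 36 and 37. What this property of replicate 14 does to its 5 junctions was not tested. Without replicate 14, 8 junctions remained, with 5 at Ly6e, 2 at Cd83 and 1 at Pim1, and the mean share was 0.706%.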

How the data were processed

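Each line of the 13 deposited tables is 1 junction read, with its prey position, strand, sequences and gene label, per the file headers. Coordinates are on mm9 (submitters' processing notes). Aligner and filters: not given in the sources used here. A deposited score of each alignment, made by the authors, served no test. The other deposited columns are positions and lengths in bases. No mm9 genome or annotation was at hand, so exons, introns and UTRs are not given.

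Lines were counted as deposited. Starts in the tables count from 0, as lengths show, and positions here count from 1. Break windows are 10 kb on either side of the 2 highest 5 kb bins on the chromosome of the cassette, kept 20 kb or more apart. The bait sequence was built from the reads, and its end was found by local alignment (Biopython 1.88, SciPy 1.17.1, Python 3.11.15). In these tables the prey start mostly follows the bait end, so blunt joins and microhomology were not separated, although planned, and joins without inserted bases are given instead. A count of 0 was given the limit of 3 counts. A check on simulated data recovered all labels and peaks put in. It covered only the counting of labels by library and the finding of peaks. Bait alignment, inserted bases, grouping and word matching were not checked in this way.

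The genes and lists were chosen with earlier results of these data known. Named genes are the 3 members, labels in their windows, the 3 labels most alike by presence in libraries and listed AID off-targets with a junction. Labels and groups of junctions that stand beside the 3 genes by count were named after their values were seen. Some results for single genes under these rules are not reported here.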

Additional observations from a re-analysis of the deposited data

How the results depend on the processing

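The mean share of the 3 genes in c-myc B cells, 0.718%, was 0.203% of all junctions, 0.809% with break windows of 20 kb on either side and 1.09% with all junctions of the 3 windows of 100 kb. For Ly6e, 0.321% became 0.0962% of all junctions and 0.569% by window. Cd83 and Pim1, at 0.172% and 0.224%, became 0.0462% and 0.0608% of all junctions and 0.324% and 0.403% of junctions off chromosome 15, moves of over 1.5 times. With 1 junction per position and strand the 3 genes held 0.726%. Leaving out single libraries gave 0.700% to 0.746% for the 3 genes, 0.262% to 0.408% for Ly6e, 0.110% to 0.258% for Cd83 (lowest without replicate 14, highest without replicate 37) and 0.148% to 0.336% for Pim1 (lowest without replicate 37, highest without replicate 36). A share of Ly6e off chromosome 15 could not be computed. The 30 labels in at least 2 c-myc B-cell libraries were 9 in 3 of 3 libraries and 14 to 18 without single libraries. The + strand share of 61.5% was 42.9% to 75% without single libraries, and joins without inserted bases, 30.8%, were 14.3% to 37.5%, and 53.8% with single inserted bases counted as none, which was added after seeing the data. No paired analysis was possible because the libraries with shared replicate numbers, IgH B and T cells, were all at 0, and the replicate block gave a difference of 0. With 13 junctions in all, counting error limits every share.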
